A study of Mus musculus with 14 samples.

Results

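Of 100253 Smarca4 sites obtained by merging the control and the Smarcb1 knockdown (kd) peak lists, 8034 lay outside every annotated gene body, more than 2.5 kb from every transcription start site (TSS), and overlapped no island of H3K27ac, H3K4me3 or H3K27me3 in either condition. These distal sites without any histone mark are described here. They were selected from called peaks and called islands, so the calls and the scores behind them are given as a description, whereas DNA sequence and genes played no part in the selection beyond the distance from them. A site was called shared when both lists had a peak in it, control-only when the control list alone did, and kd-only when the kd list alone did. There were 1300 shared, 4112 control-only and 2622 kd-only sites among the 8034.

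The libraries came from 81K1 cells, a single mouse embryonic stem cell (mESC) clone of OG2 origin that carries a doxycycline-inducible shRNA cassette against Smarcb1 in the Rosa26 locus. Control cells carried the same cassette and received no doxycycline, and kd cells received 1 µg/ml doxycycline for 72 h, so any effect of the drug itself cannot be told apart from the knockdown. For each condition 1 ChIP-seq library was made per target, the 5 targets being Ezh2, Smarca4 and the marks H3K4me3, H3K27ac and H3K27me3, and 4 of the 14 samples were inputs. Without replicates no difference between conditions could be tested, and the 95% Wilson intervals below cover counting error only. The lists do not hold read depth, so its part in which sites were called was not tested. The control and kd Smarca4 lists held 79014 and 72339 peaks on the assembled chromosomes. They hold no measure of Smarcb1 itself, whose TSS lay in H3K4me3 and H3K27ac islands in both conditions. Of 12 mESC markers (Pou5f1, Sox2 and Nanog among them), 11 in control and 12 in kd had an H3K27ac island at the TSS, and all had one of H3K4me3. Of 12 endoderm, mesoderm and trophoblast markers, none had an H3K27ac island in either condition, and 7 in control and 10 in kd had one of H3K4me3. Of 12 neural and fibroblast markers Sox1 alone had H3K27ac, in kd cells, and 7 in control and 9 in kd had H3K4me3.

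Smarca4 (Brg1) is the ATPase of the esBAF chromatin remodelling complex of mESC, and Smarcb1 is one of its core subunits. BAF slides or evicts nucleosomes, and in mESC it is found at promoters and at enhancers together with Oct4 (Pou5f1) and Sox2. Active enhancers usually carry H3K27ac, active promoters H3K4me3, and regions silenced by the Polycomb Repressive Complex 2 H3K27me3. Open chromatin with none of these marks is known at insulators, where the zinc-finger protein CTCF binds and anchors chromatin loops with cohesin. It is also known at sites of REST, a zinc-finger repressor of neuronal genes outside the nervous system.

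To show the DNA behind the motif results, the strongest sites holding each motif are printed from the GRCm38 assembly (the same build as mm10), 5′ to 3′ on the strand of the motif, with 80 bp each and the motif in capitals. The CTCF motif was most frequent at kd-only sites, and these are the 4 kd-only sites of highest score that held it:
Site nearest to Prph2, chr17:46904023-46904102, plus strand: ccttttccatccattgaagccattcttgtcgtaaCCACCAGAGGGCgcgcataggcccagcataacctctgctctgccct
Site nearest to Cbr4, chr8:61479983-61480062, minus strand: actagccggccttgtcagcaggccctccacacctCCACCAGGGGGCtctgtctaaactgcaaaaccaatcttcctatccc
Site nearest to Creld2, chr15:88828868-88828947, plus strand: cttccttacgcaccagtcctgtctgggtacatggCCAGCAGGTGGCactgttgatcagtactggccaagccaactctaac
Site nearest to Smbd1, chr16:32813096-32813175, plus strand: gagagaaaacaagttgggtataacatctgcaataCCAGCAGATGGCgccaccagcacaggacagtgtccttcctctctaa
The composite Oct4-Sox2 motif, a Sox element followed by a POU element, was more frequent at control-only than at kd-only sites. The 4 control-only sites of highest score that held it were as follows:
Site nearest to Laptm4a, chr12:8868834-8868913, minus strand: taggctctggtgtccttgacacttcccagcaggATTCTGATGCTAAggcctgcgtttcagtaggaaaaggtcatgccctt
Site nearest to Fyb, chr15:6664166-6664245, plus strand: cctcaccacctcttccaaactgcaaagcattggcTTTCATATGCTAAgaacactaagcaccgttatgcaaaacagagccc
Site nearest to Minpp1, chr19:32524019-32524098, plus strand: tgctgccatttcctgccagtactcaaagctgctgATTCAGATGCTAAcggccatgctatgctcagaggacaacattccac
Site nearest to Npvf, chr6:50718785-50718864, plus strand: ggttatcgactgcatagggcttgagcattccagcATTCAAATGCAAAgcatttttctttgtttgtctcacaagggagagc
The REST motif was most frequent at shared sites, and the 4 shared sites of highest mean rank that held it were as follows:
Site nearest to Prnd, chr2:131958124-131958203, plus strand: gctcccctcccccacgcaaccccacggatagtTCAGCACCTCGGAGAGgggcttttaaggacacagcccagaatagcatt
Site nearest to Slc25a33, chr4:149800112-149800191, plus strand: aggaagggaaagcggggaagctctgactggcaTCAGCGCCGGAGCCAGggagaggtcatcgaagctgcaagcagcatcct
Site nearest to Lemd2, chr17:27228705-27228784, minus strand: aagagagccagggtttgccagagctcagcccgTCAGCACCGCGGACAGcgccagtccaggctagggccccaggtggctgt
Site nearest to Igsf21, chr4:140358262-140358341, plus strand: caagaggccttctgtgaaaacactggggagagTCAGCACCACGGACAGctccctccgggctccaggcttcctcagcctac
The central 150 bp of the shared site of highest mean rank and of the control-only and kd-only sites of highest score are shown in that order, since they lead their classes and held none of these 3 motifs in full. Capitals mark REST motifs with 1 mismatch in the first, and in the second a CAGCTG E-box, the short palindrome bound by helix-loop-helix proteins.
Site nearest to Gjb5, chr4:127619983-127620132, plus strand: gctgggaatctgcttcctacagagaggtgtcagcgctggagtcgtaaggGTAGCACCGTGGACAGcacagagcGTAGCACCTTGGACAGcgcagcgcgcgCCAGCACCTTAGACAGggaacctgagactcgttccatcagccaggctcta
Site nearest to Sall1, chr8:89073082-89073231, plus strand: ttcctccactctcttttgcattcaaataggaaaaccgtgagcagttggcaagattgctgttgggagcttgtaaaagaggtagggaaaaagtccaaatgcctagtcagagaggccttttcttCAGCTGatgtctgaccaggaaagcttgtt
Site nearest to Ppp6c, chr2:39806899-39807048, plus strand: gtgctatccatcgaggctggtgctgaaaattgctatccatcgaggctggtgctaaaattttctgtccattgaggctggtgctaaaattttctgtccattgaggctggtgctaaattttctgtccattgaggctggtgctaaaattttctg
The shared site thus held 3 copies of the REST motif within 150 bp, each with 1 mismatch. The kd-only site is tandem repeat sequence, with 5 copies of gaggctggtgct in 150 bp.

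The distal unmarked sites were called in a single condition more often than all Smarca4 sites. Only 16.2% of them (95% interval 15.4 to 17.0%) were shared, whereas 39.7% of all Smarca4 sites were. Control-only sites made up 51.2% (50.1 to 52.3%) against 34.6% of all sites, and kd-only sites 32.6% (31.6 to 33.7%) against 25.7% of all sites. The kd-only to control-only ratio was -0.65 on the log2 scale (-0.72 to -0.58), and over all sites it was -0.43 (-0.45 to -0.40). The value for unmarked sites depended on the processing, and was -0.37 with lists of equal length, -1.08 without repeat-masked sites and -1.44 with peaks of a score of at least 50. Among distal sites, those in an H3K27ac island alone were shared in 39.99% (38.7 to 41.3%) and had a log2 ratio of -0.04 (-0.14 to 0.06). Those in an H3K27me3 island were shared in 32.2% (31.2 to 33.2%) with a log2 ratio of -0.82 (-0.90 to -0.74). Distal sites in H3K27ac and H3K4me3 islands were shared in 40.9% (39.7 to 42.2%) and mostly kd-only otherwise, with a log2 ratio of 4.01 (3.81 to 4.22). The 1060 distal sites in an H3K4me3 island alone were shared in 14.6% (12.6 to 16.9%), an interval that overlapped that of unmarked sites, and had a log2 ratio of 3.95 (3.56 to 4.34). In H3K4me3 islands with and without H3K27ac, 94.7% and 90.8% of the kd-only sites were at least 50% repeat-masked.

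Scores were low at most of them. The MACS2 score is 10 times the −log10 of the q-value, and it was given here as a percentile within its own list because scores of separate libraries are not on one scale. Control-only sites had a median score of 48 (highest 281) and a median percentile of 31.5, and kd-only sites had a median of 41 (highest 249) and a percentile of 25.03. Shared sites reached a median score of 64.5 in the control list (highest 596) and 53 in the kd list (highest 448), at median percentiles of 50.2 and 41.1. The kd list held 12 of its 3922 unmarked distal sites, 0.306%, in its top 10% of scores, and the control list 49 of 5412, 0.905%. Control-only sites with H3K27ac alone or H3K27me3 had median percentiles of 35.7 and 31.5, and kd-only sites with either mark 27.8. Shared sites with H3K27ac alone had 61.4 in control and 58.0 in kd, and shared sites with H3K27me3 62.7 and 53.8. Shared sites in H3K4me3 islands were at 49.1 in control, with or without H3K27ac. In kd they were at 85.5 with H3K27ac and at 58.0 without it, and the percentile was higher in kd at 81.8% and 52.3% of them. In 523 of 1300 shared sites (40.2%, 37.6 to 42.9%) the percentile was higher in the kd list, and the median change from control to kd was -6.65 percentile points. Over all shared Smarca4 sites the percentile was higher in the kd list in 45.6%, and the median change was -1.66 percentile points.

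**Figure D1:**
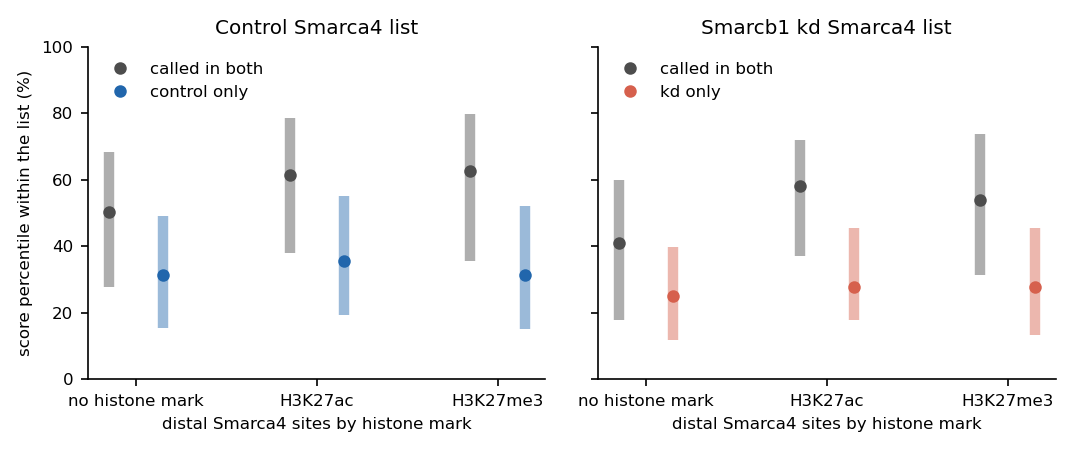
Score percentile within the control list (left) and the kd list (right) for distal Smarca4 sites with no histone mark, with H3K27ac alone and with H3K27me3. Points are medians and bars run from the lower to the upper quartile over sites. Sites called in both conditions without a mark sit at a median of 50.2 in control and 41.1 in kd, below the 61.4 and 58.0 with H3K27ac alone and the 62.7 and 53.8 with H3K27me3.

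The highest-ranked sites lay at very different distances from genes. The site on chromosome 4 printed above (chr4:127619628-127620487) had scores of 548 in control and 357 in kd, and its nearest protein-coding TSS was that of Gjb5, a connexin gene, 261 kb away. A second shared site (chr12:52396042-52397002), 107 kb from Arhgap5, had the highest control score of the unmarked sites, 596, and a kd score of 271. In the rest of the top 5 shared sites the percentile was higher in the kd list than in the control list. They were chr14:64546063-64547602 near Msra with 229 in control and 378 in kd, chr7:115216870-115217585 near the transcription factor gene Sox6 with 209 and 448, and chr5:64579675-64580650 near Klf3 with 207 and 272. The strongest control-only site (chr8:89072753-89073560, score 281) lay 28.6 kb from Sall1, which encodes a zinc-finger transcription factor. It was followed by chr2:27644492-27645349 (score 230), 31.1 kb from the retinoid X receptor gene Rxra. A score of 219 was reached by both chr9:88064288-88065203 near Nt5e and chr11:63955057-63957939 near Hs3st3b1. The strongest kd-only site was the tandem repeat on chromosome 2 (chr2:39806469-39807479, score 249), of which 66.0% was repeat-masked and which lay 580 kb from Ppp6c. The next had scores of 183 (chr14:8286537-8286913, near Fam107a), 177 (chr7:141000768-141001481, near the interferon-induced gene Ifitm3) and 170 (chr11:20400813-20401204, near the amino acid transporter gene Slc1a4).

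CTCF motifs were most frequent at sites called in kd alone. The motif stood within the central 500 bp of 89 of 2622 kd-only sites (3.39%, 2.77 to 4.16%), 24 of 4112 control-only sites (0.584%, 0.393 to 0.867%) and 27 of 1300 shared sites (2.08%, 1.43 to 3.0%). Over all Smarca4 sites the shares were 1.87% of kd-only, 0.678% of control-only and 0.997% of shared sites. Windows of the same length 5 kb to either side of the unmarked sites held it in 0.553% around kd-only, 0.450% around control-only and 0.462% around shared sites. The kd-only share exceeded the control-only share by 2.81 percentage points (2.12 to 3.60), beyond counting error, and the interval of control-only sites overlapped that of their flanks (0.327 to 0.619%). The difference between kd-only and control-only sites was not particular to unmarked sites, as distal sites in H3K27me3 islands held the motif in 3.53% of kd-only (2.8 to 4.43%) and 0.486% of control-only sites (0.304 to 0.777%). Distal kd-only sites in H3K27ac islands alone had a share of 1.74% (1.20 to 2.5%). In islands of both H3K27ac and H3K4me3 the order was the opposite, with 0.122% of kd-only (0.0473 to 0.312%) and 1.961% of control-only sites (0.765 to 4.93%). These shares rest on 4 of 3290 kd-only and 4 of 204 control-only sites. Of all kd-only sites in such islands 94.7% were at least 50% repeat-masked, and of the control-only sites 43.6%. In the kd-only class the share was 2.39% (1.64 to 3.45%) below the 20th percentile of score, 3.82% (2.72 to 5.34%) from there to the 40th, and 4.60% (3.24 to 6.49%) above it. In 63 of the 89 kd-only sites (70.8%, 60.6 to 79.2%) the motif centre lay within 100 bp of the site centre, where an even spread over the window would put 41.0%. It did so in 13 of 27 shared (48.1%, 30.7 to 66.0%) and 10 of 24 control-only sites (41.7%, 24.5 to 61.2%), intervals that include 41.0%. The 4 sites printed above had kd scores of 140 near Prph2, 122 near Cbr4, 94 near Creld2 and 93 near Smbd1, with no peak in the control list. When only bases of the site itself were searched, which favours the wider shared sites, shared sites had a share of 2.69% and kd-only sites 2.52%.

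Oct4-Sox2 motifs showed the opposite distribution. They stood in 51 of 4112 control-only sites (1.24%, 0.945 to 1.63%), 7 of 2622 kd-only sites (0.267%, 0.129 to 0.550%) and 10 of 1300 shared sites (0.769%, 0.418 to 1.41%). The shares over all Smarca4 sites were 0.707% of control-only, 0.144% of kd-only and 0.351% of shared sites, and the flanking windows had 0.426% around control-only and 0.248% around kd-only sites. The kd-only minus control-only difference was -0.973 percentage points (-1.38 to -0.564). The shared minus control-only difference was -0.471 (-0.993 to 0.235), within counting error. Control-only sites in H3K27ac islands alone had a share of 1.57% (1.07 to 2.29%), which overlapped that of unmarked sites, and those in H3K27me3 islands 0.572% (0.370 to 0.881%), which did not. The motif centre lay within 100 bp of the site centre in 32 of 51 control-only sites (62.7%, 49.0 to 74.7%), against 41.1% for an even spread. The strongest of them, near Laptm4a, had a control score of 118. Scores of 110 near Fyb, 108 near Minpp1 and 94 near Npvf followed. The octamer ATGCAAAT, which overlaps the POU element of the composite motif, stood in 4.89% of control-only sites (4.27 to 5.59%), in 2.82% of kd-only sites (2.25 to 3.53%) and in 3.22% of windows flanking the control-only sites. Over all Smarca4 sites the octamer stood in 3.19% of control-only and 1.69% of kd-only sites. The motif TCAAGGTCA of Esrrb, an orphan nuclear receptor of the pluripotency network, stood in 3.53% of control-only sites (3.0 to 4.13%) against 1.62% of their flanks, and in 1.53% of kd-only (1.12 to 2.07%) and 1.77% of shared sites (1.18 to 2.64%). Over all Smarca4 sites its shares were 2.43% of control-only, 1.21% of kd-only and 1.38% of shared sites. Distal sites with H3K27ac alone had the Esrrb motif in 3.19% of control-only, 2.67% of kd-only and 3.39% of shared sites.

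REST motifs were most frequent at shared sites. They were found in 28 of 1300 shared sites (2.15%, 1.49 to 3.10%), 14 of 2622 kd-only sites (0.534%, 0.318 to 0.894%) and 7 of 4112 control-only sites (0.170%, 0.0825 to 0.351%). All Smarca4 sites held the motif in 0.500% of shared, 0.276% of kd-only and 0.115% of control-only sites, and 7 of the 16068 flanking windows had it (0.0436%). Shared unmarked sites exceeded distal shared sites in H3K27me3 islands, of which 0.807% (0.529 to 1.23%) had the motif, and those in H3K27ac islands alone, where 1 of 2180 did. Shared sites with the motif had median scores of 78.5 in both lists, and their percentile was higher in the kd list at 13 of the 28. The site near Prnd scored 138 in control and 242 in kd, and the site near Igsf21 109 and 119. The remaining pair of printed sites ranked higher in the control list, with scores of 239 in control and 94 in kd near Slc25a33 and 230 and 92 near Lemd2. With 1 mismatch allowed, the motif stood in 54 shared sites (4.15%, 3.20 to 5.38%), in 2.12% of control-only sites (1.72 to 2.60%) and in 2.75% of kd-only sites (2.19 to 3.44%), against 1.23%, 1.40% and 1.13% of their flanking windows. No site held both an Oct4-Sox2 and a REST or CTCF motif, and 1 held CTCF and REST motifs. No match to the p53 motif was found in 8034 sites, which allows a share of up to 0.0373% by the limit of 3 counts, and 9 of all 100253 Smarca4 sites held one.

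**Figure D2:**
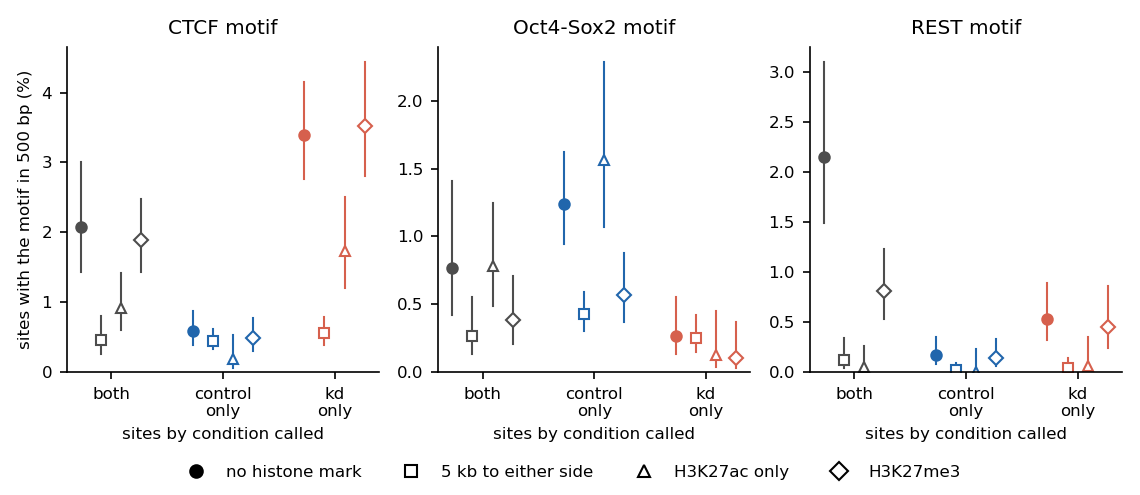
Share of sites with the CTCF, Oct4-Sox2 or REST motif in the central 500 bp, by the condition in which they were called. Filled circles are distal unmarked sites, open squares the windows 5 kb to either side of them, triangles and diamonds distal sites with H3K27ac alone or H3K27me3, and lines are 95% Wilson intervals. The highest shares of unmarked sites are 3.39% for CTCF in kd-only, 1.24% for Oct4-Sox2 in control-only and 2.15% for REST in shared sites.

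**Figure D3:**
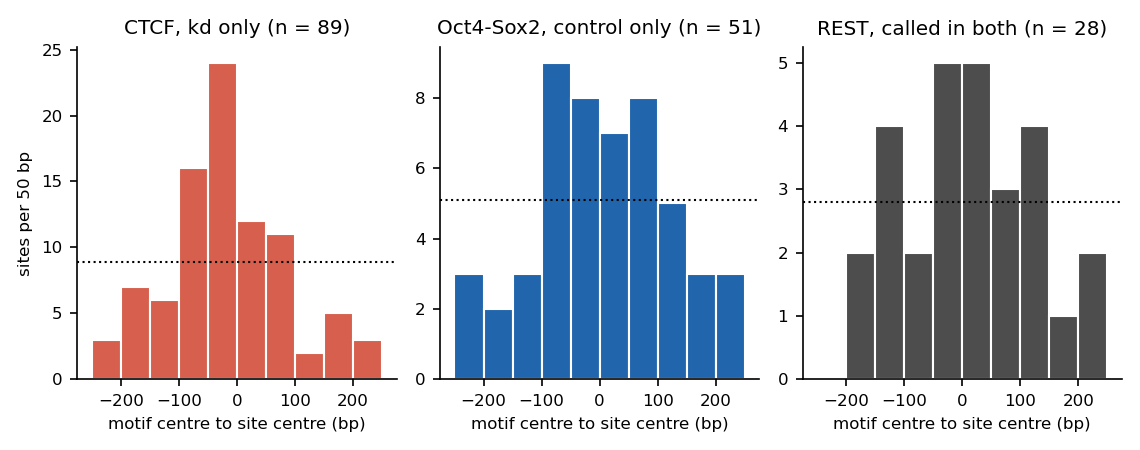
Distance in bp from the site centre to the motif centre, as sites per 50 bp, for CTCF in kd-only (89 sites), Oct4-Sox2 in control-only (51 sites) and REST in shared sites (28 sites). The dotted line is the mean per bin. CTCF motifs gather around the centre, with 63 of 89 within 100 bp. For REST 15 of 28 lie there (53.6%, 35.8 to 70.5%), an interval that includes the 41.3% of an even spread.

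The shorter motifs were common in the flanking windows too. The KLF motif GGGTGTGG stood in 7.92% of unmarked sites (7.35 to 8.53%) and in 4.81% of the flanking windows, and the E-box in 30.2% (29.2 to 31.2%) and 21.3%. Over all Smarca4 sites the shares were 6.88% for the KLF motif and 29.2% for the E-box, so most of the excess over flanks was not particular to unmarked sites. By class, the E-box stood in 33.8% of shared (31.3 to 36.5%), 30.9% of control-only (29.5 to 32.3%) and 27.3% of kd-only sites (25.6 to 29.05%). Over all Smarca4 sites it stood in 28.8%, 31.2% and 27.3% of these classes. The AP-1 motif TGANTCA had shares of 16.1% in sites and 14.9% in flanks, and the TEAD motif ACATTCCA 2.61% and 2.40%, and for both the intervals of sites and flanks overlapped. Over all Smarca4 sites, the AP-1 share was 11.6% (11.4 to 11.8%) and the TEAD share 1.94%. AP-1 shares were 18.3% of shared (16.3 to 20.5%), 16.6% of control-only (15.5 to 17.8%) and 14.3% of kd-only sites (13.01 to 15.7%). Of the flanking windows 15.8% overlapped some Smarca4 site.

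Repeat content differed between the classes too. At least 50% of the bases were repeat-masked in 902 of 2622 kd-only sites (34.4%, 32.6 to 36.2%), 472 of 4112 control-only sites (11.5%, 10.5 to 12.5%) and 95 of 1300 shared sites (7.31%, 6.02 to 8.85%). The kd-only share was 22.9 percentage points above the control-only share (20.9 to 24.99), and over all Smarca4 sites these shares were 36.1% and 7.59%. CTCF motifs were nearly absent from repeat-masked sites, with 4 of 902 kd-only sites (0.443%, 0.173 to 1.13%), and stood in 85 of the 1720 other kd-only sites (4.94%, 4.01 to 6.07%). kd-only sites were also narrow, with a median width of 246 bp against 310 bp for control-only and 586 bp for shared sites. Their central windows held a median of 9 CpG dinucleotides, control-only windows 6 and shared windows 8.

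Most of the sites were clustered. Another distal unmarked site lay within 10 kb of 4852 of the 8034 (60.4%, 59.3 to 61.5%), which held for 72.2% of shared, 64.3% of control-only and 48.4% of kd-only sites. Distal sites in H3K27me3 islands, similar in number (8084), had one of their own kind within 10 kb in 77.0% (76.1 to 77.9%). Those with H3K27ac alone (5452) had one in 81.3%, and those with H3K27ac and H3K4me3 (5915) in 29.7%. Over all 28545 distal Smarca4 sites, a larger set, the share was 70.2% (69.6 to 70.7%). By class it was 73.3% of shared, 80.1% of control-only and 58.4% of kd-only distal sites. The class of the nearest site differed between classes. Where a control-only site had a neighbour within 10 kb, the nearest was control-only in 69.4% (67.6 to 71.1%), and the nearest to a kd-only site was kd-only in 47.6% (44.8 to 50.3%). The nearest to a shared site was control-only in 44.8% (41.6 to 47.97%) and shared in 29.7% (26.9 to 32.7%). Linking neighbours up to 10 kb apart gave 187 runs of 5 or more sites, with 1217 sites in all. They were control-only in 54.8% (52.0 to 57.6%) and kd-only in 19.1% (17.0 to 21.4%), whereas the 3182 sites that stood alone were control-only in 46.1% (44.3 to 47.8%) and kd-only in 42.6% (40.8 to 44.3%). Sites that stood alone were repeat-masked in 25.6%, and those in runs of 5 or more in 7.97%.

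The 3 runs with most sites were control-only for the most part. A run of 16 sites over 24.1 kb (chr1:119388975-119413068) lay 9.18 to 31.0 kb from the TSS of Inhbb, which encodes the beta B subunit of activins and inhibins. It had 12 control-only and 4 shared sites, with control scores from 15 to 203 and kd scores from 33 to 100. Another run of 16 sites over 25.9 kb (chr19:55712151-55738020) was nearest to Tcf7l2, a transcription factor of the Wnt pathway, 3.80 to 28.5 kb from the closest TSS. There 14 sites were control-only and 2 shared, with control scores from 22 to 148 and kd scores of 73 and 32. The third run held 14 sites over 28.4 kb (chr17:31725020-31753378), 45.5 to 73.4 kb from the lens crystallin gene Cryaa, with 10 control-only, 3 shared and 1 kd-only site. Control scores ran from 34 to 86 and kd scores from 26 to 93. None of the 46 sites held a CTCF, Oct4-Sox2 or REST motif. An H3K27ac island of control cells lay between the sites of each of the Inhbb and Tcf7l2 runs, without overlapping any of them, and in kd cells the nearest one was 6.93 kb from the Inhbb run and 1.98 kb from the Tcf7l2 run. At the Cryaa run it was nearer in kd cells, at 28.6 kb against 48.4 kb in control.

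**Figure D4:**
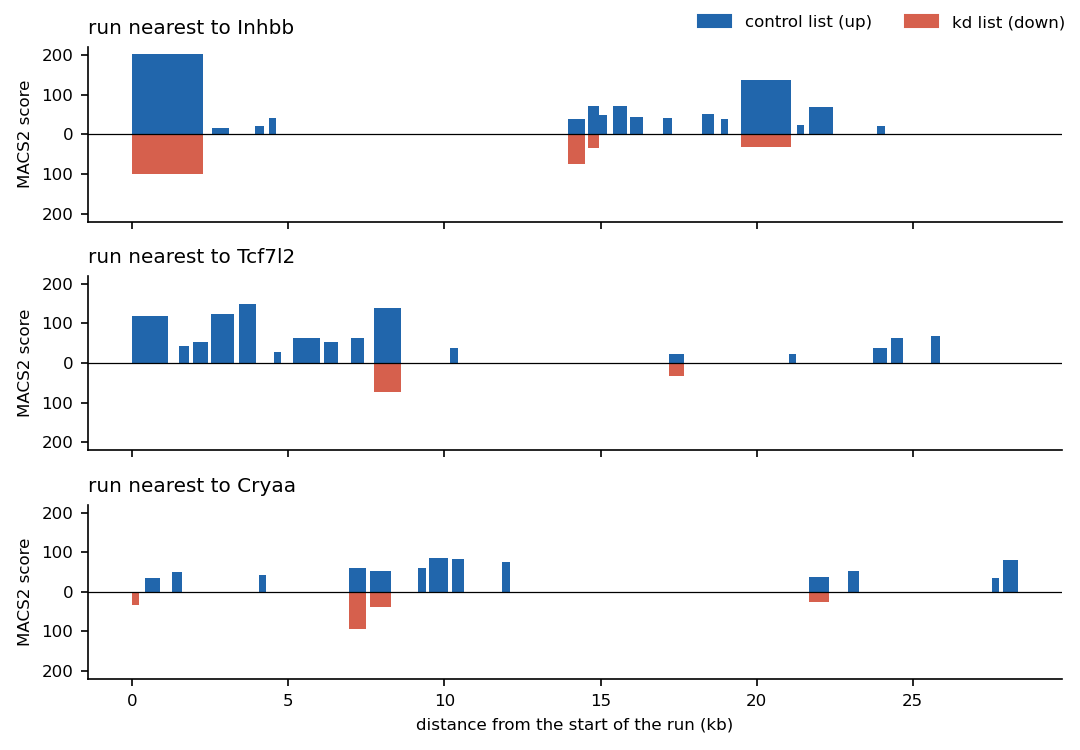
The 3 runs with most distal unmarked Smarca4 sites, with distance in kb from the start of each run on the x axis and the MACS2 score on the y axis, upwards for the control list and downwards for the kd list. Bar width is the width of the site. Most sites have a control bar alone, 12 of 16 near Inhbb, 14 of 16 near Tcf7l2 and 10 of 14 near Cryaa.

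The median distance to the nearest protein-coding TSS was 29.1 kb, with 34.6 kb for control-only, 25.4 kb for kd-only and 24.6 kb for shared sites. Distal sites with H3K27ac alone had a median of 19.2 kb and those with H3K27me3 22.6 kb. The sites were nearest to 3592 protein-coding genes, of which 1867 had 1 site and 67 had 10 or more. Mycn, a Myc family transcription factor gene, was nearest to the most, 29 sites 8.12 to 281 kb away, of which 13 were shared, 10 control-only and 6 kd-only. Their scores ran from 19 to 190 in control and from 25 to 150 in kd. Rybp, which encodes a subunit of variant Polycomb Repressive Complex 1, had 25 sites (9 shared, 9 control-only and 7 kd-only). Serp2 had 24 sites, with 8 shared, 12 control-only and 4 kd-only. Inhbb had 21 sites, 16 of them control-only and none kd-only, whereas Klf3, a Krüppel-like transcription factor gene, had 21 with 9 control-only and 7 kd-only. Its kd scores reached 272 and its control scores 207. Sall1 had 19 sites with 12 control-only, and the kinase gene Sik1 had 18 with 7 shared, 9 control-only and 2 kd-only. 1810013L24Rik (20 sites), Noct (18) and Fam43a (18) completed the 10 genes. Distal Smarca4 sites of every kind numbered 55 nearest to Mycn, 61 to Rybp, 47 to Serp2, 26 to Inhbb and 28 to Klf3. They numbered 56 for Sall1, 29 for Sik1, 30 for 1810013L24Rik, 27 for Noct and 26 for Fam43a. In all, 8034 of 28545 distal sites were unmarked. Only 1 of the unmarked sites nearest to these 10 genes held a CTCF motif, and none an Oct4-Sox2 or REST motif. Over all unmarked sites these motifs were rare too, at 1.74%, 0.846% and 0.610%.

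**Figure D5:**
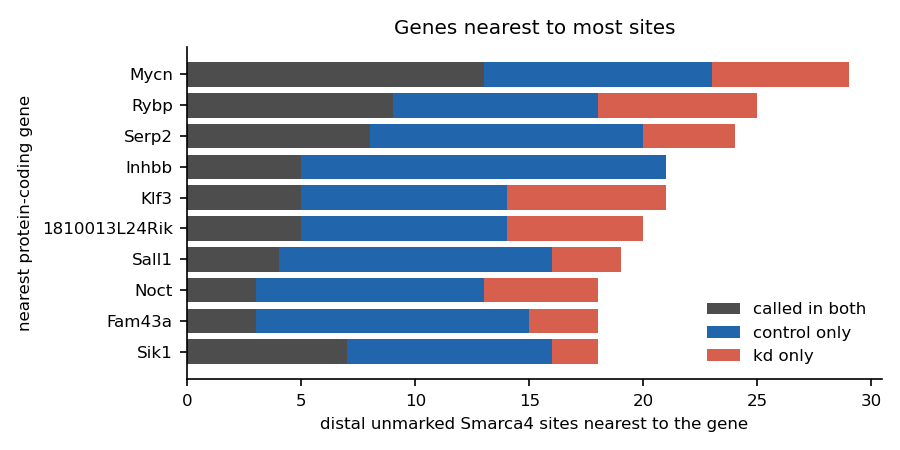
Number of distal unmarked Smarca4 sites nearest to each of the 10 protein-coding genes with most of them, coloured by the condition in which the site was called. Mycn leads with 29 sites, 13 of them called in both conditions, and the 21 sites near Inhbb include none called in kd alone.

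Of all 21911 protein-coding genes, 16.4% were nearest to at least 1 of the sites. Genes of core and naive pluripotency were nearest to a site in 15 of 30 (50.0%, 33.2 to 66.8%), with 87 sites between them, of which 22 were shared, 40 control-only and 25 kd-only. Besides Mycn, Sox2 had 12 sites (1 shared, 8 control-only and 3 kd-only, with scores up to 76 in control and 83 in kd) and Myc had 10 (4 shared, 1 control-only and 5 kd-only). Distal Smarca4 sites of every kind numbered 39 nearest to Sox2 and 22 nearest to Myc. Among axon guidance genes the share was 36.6% (26 of 71, 26.4 to 48.2%), with 24 of 44 sites control-only, and Nrp2, a semaphorin co-receptor gene, had 3 control-only sites with scores from 51 to 153. Plxnc1 had 4 sites, 1 control-only and 3 kd-only. Synaptic adhesion and receptor genes had a share of 29.5% (26 of 88, 21.03 to 39.8%) and 36 of 62 sites were control-only. The latrophilin gene Adgrl2 was nearest to 10 sites, all of them control-only, with scores from 21 to 141 at 121 to 859 kb. Nlgn3 had 5 sites, 2 shared and 3 kd-only. Developmental transcription factor genes had a share of 22.3% (50 of 224, 17.4 to 28.2%) and 79 of their 123 sites were control-only, with 16 sites near Foxo1 (10 control-only, 3 shared and 3 kd-only). Foxo1 was nearest to 35 distal Smarca4 sites of every kind. For cadherins and protocadherins the share was 24.0% (16.7 to 33.2%), with equal numbers of control-only and kd-only sites (24 each). Cdh4 had 5 sites, 4 of them control-only and 1 shared. Cdh7 had 3 sites, all kd-only, with scores from 35 to 42 at 231 to 368 kb, and each at least 50% repeat-masked. For voltage-gated ion channel genes the share was 23.1% (16.5 to 31.4%), with 25 control-only and 19 kd-only sites. Olfactory and vomeronasal receptor genes were nearest to a site in 43 of 1464 (2.94%, 2.19 to 3.93%), and 36 of their 61 sites were kd-only and 20 control-only. Among 28 BAF subunit genes 6 were nearest to a site, and 3 kd-only sites with scores from 26 to 148 lay 72.9 to 368 kb from Arid1b. Bicral had 5 sites, with 1 shared, 2 control-only and 2 kd-only. Among 18 cohesin and Ctcf genes 5 were nearest to a site, with Ctcfl, a paralogue of Ctcf, nearest to 4 sites. Genes differ in the length of intergenic DNA around them, whose part in these shares was not tested.

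Marks were present in the neighbourhood. The nearest H3K27me3 island lay at a median distance of 15.6 kb in control and 34.6 kb in kd, and 26.2% of the sites had one within 5 kb in control against 12.4% in kd. For H3K27ac the median was 19.2 kb in control and 11.2 kb in kd, with 23.2% and 32.8% of sites within 5 kb, and for H3K4me3 it was 28.2 kb and 22.3 kb. Shared sites were closest to H3K27ac islands of kd cells, at a median of 6.74 kb, followed by kd-only sites at 8.46 kb and control-only sites at 15.3 kb. The island lists differ in length between conditions, with 39091 H3K27ac islands in control and 51100 in kd, and 22909 and 18320 H3K27me3 islands. Ezh2, the methyltransferase of the Polycomb Repressive Complex 2, had a peak at 1 of the 8034 sites. It was a kd-only site with a score of 42 (chr1:16826555-16826890, nearest to Ly96), of which 78.3% was repeat-masked. The share over all Smarca4 sites was 6.08%. The rule left out H3K27me3 islands, the mark that Ezh2 writes, so this share is not independent of the selection. Distal sites with H3K27ac alone had an Ezh2 peak at 2 of 5452, and those in H3K27me3 islands at 5.70%. Just inside the TSS limit, the 1099 sites 2.5 to 5 kb from a TSS were shared in 18.1%, and just outside, 1061 unmarked intergenic sites up to 2.5 kb from a TSS were shared in 17.3%. The 1868 sites up to 1 kb from an island were shared in 21.6%, and 1623 distal sites that straddled the edge of an island in 43.6%.

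By chromosome, kd-only sites made up from 29.6% (chromosome 8) to 45.5% (chromosome 7) of single-condition sites on the autosomes. On chromosome X, 101 kd-only stood beside 79 control-only sites, which made 56.1% (48.8 to 63.2%), and 67.3% of these kd-only sites were repeat-masked. All 11 sites on chromosome Y were kd-only.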

How the data were processed

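ChIP-seq peak and island lists of 81K1 mESC were used as deposited, 1 list per antibody and condition. Reads had been trimmed (Trim Galore), aligned to mm10 (Bowtie2), filtered with SAMtools 1.9 and called by the authors on Galaxy. The Smarca4 and Ezh2 lists hold MACS2 scores deposited by the authors, whole numbers from 13 (q 0.05) upwards. The histone lists hold SICER p-values deposited by the authors (window 200 bp, gap 600 bp, below 1e-05 for H3K27ac and 1e-10 for the other marks). Peak names in the Smarca4 and Ezh2 lists mention IgG, whereas the methods name input as the control. Read depth is not in the lists, so precision is given as 95% Wilson intervals over sites (Newcombe intervals for differences), which cover counting error only.

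Peaks on assembled chromosomes were merged with bedtools 2.31.1 and placed by GENCODE M21 gene bodies and transcript TSS, with an overlap of at least 1 bp. A merged site took the highest peak score. Motifs were searched on both strands in the central 500 bp of the RefSeq GRCm38 sequence, whose lower-case bases are repeat-masked. The CTCF, Oct4-Sox2, REST and p53 motifs were fixed consensus strings without mismatch, and 10 motifs were searched in all. Python 3.11.15, numpy 2.4.6 and pandas 2.3.3 were used, and the placing of sites and the motif search were tested on simulated data.

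The sites, gene lists and motifs were chosen with earlier results of these data known. Sites named are the 5 shared sites of highest mean percentile, the 4 control-only and 4 kd-only sites of highest score, the 3 runs with most sites and any site with an Ezh2 peak. Genes named are those nearest to these sites, the 10 nearest to most sites and up to 3 per list. Sites printed for a motif were picked after the motif shares were seen. Alternatives were other score limits, list lengths, merging, TSS and island distances, annotations, overlaps, motif windows and mismatches. The 4 input samples were not used.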

Additional observations from a re-analysis of the deposited data

How the results depend on the processing

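With 1 library per antibody and condition no library could be left out. No paired analysis was possible because each condition has 1 library and no result comes from a test. Neither the log2 ratio nor the repeat difference changed sign under an alternative, and kd-only sites held more CTCF motifs than control-only sites in each alternative in which CTCF was counted. Peaks with a score of at least 50 left 3722 sites, of which 13.9% were shared, with -1.44 as the log2 ratio of kd-only over control-only sites, a CTCF share of 4.40% in kd-only sites, a repeat difference of 18.7 percentage points, 46.6% of sites clustered and a median control percentile of 46.4 in shared sites. Lists of equal length gave a log2 ratio of -0.37 and 58.2% clustered. Merging peaks up to 500 bp apart gave 17.5% shared, a log2 ratio of -0.50, a repeat difference of 26.0, 43.2% clustered and 31.0 kb to the nearest protein-coding TSS. A limit of 5 kb from the TSS gave 59.2% clustered and 33.6 kb. Protein-coding genes only gave 17.1% shared, 62.9% clustered and 30.9 kb. No island within 1 kb gave 14.5% shared, a log2 ratio of -0.72, a repeat difference of 27.5, 57.3% clustered and 33.1 kb. Without repeat-masked sites 18.4% were shared, the log2 ratio was -1.08, the CTCF share of kd-only sites was 4.94% and the distance 27.7 kb. An overlap of 50% of the shorter peak gave 14.3% shared, and a distance of 50 kb gave 74.4% clustered. CTCF shares of shared, control-only and kd-only sites were 1.00%, 0.219% and 2.25% in the central 200 bp and 11.0%, 6.83% and 13.96% with 1 mismatch. Within the site itself, an alternative added after seeing the data, the control-only and kd-only shares were 0.340% and 2.52%, and shared sites came above kd-only sites with 2.69%. The other motifs were varied after the data were seen. Oct4-Sox2 shares of control-only and kd-only sites were 0.705% and 0.0763% in the central 200 bp and 10.8% and 4.58% with 1 mismatch. The REST share of shared sites was 1.15% in the central 200 bp and 3.28% with scores of at least 50. The cause of these shifts was not tested, except that narrower windows and mismatches change how much sequence can match. Without the sex chromosomes, also added later, the log2 ratio was -0.68. Peak lists without depth limit any statement on sites that narrowly missed a call.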
